A study of Rattus norvegicus with 6 samples.

Results

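The cytosolic translation initiation and elongation factors were examined as 56 genes of the 14217 that carried a single symbol on the array. A gene was included when its symbol began with Eif1 to Eif6, Eef1 or Eef2, and the kinases that phosphorylate eIF2 (Eif2ak genes) were left out. The 56 genes had 88 probe sets, and each gene was represented by its brightest one. Of the 56 genes, 54 passed the filter on dim signals and were tested. The genes not tested were Eif2s3y and Eif5a2, whose brightest probe sets had mean signals of 0.81 and 2.34.

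The cells were GH4C1, a rat pituitary tumour line that makes prolactin and growth hormone. Both groups were transduced with lentiviral particles at a multiplicity of infection of 5 for 16 h and then grown for 4 days. The 3 R271W cultures received POU1F1(R271W), described in the title as a dominant negative mutant of a pituitary transcription factor, under the PGK promoter with an IRES and EGFP. The 3 control cultures are labelled control, and the design text gives a PGK-driven EGFP vector as the control. The labels call the replicates biological, each was hybridised to 1 Affymetrix rat array, and all come from 1 cell line, so p-values measure the spread between these cultures. In such bulk samples, fewer cells of a kind and less RNA per cell cannot be told apart. The somatolactotroph markers Gh1, Prl and Pou1f1 had mean signals of 6368, 3705 and 2054. Of the genes listed as markers of other pituitary cell types, Pomc, Tshb, S100b, Pecam1 and Ptprc lay below the filter. Lhb, Fshb and Cga were dim (25.3, 11.4 and 27.3) and overlapped between groups, at log2 changes of -0.16, 0.05 and 0.04. Prl fell in R271W cells by 0.45 on the log2 scale and Pou1f1 by 0.33, while Gh1 read -0.03. Sox2 and the matrix gene Dcn, from the same list of other cell types, were not dim, at mean signals of 204 and 1827. Sox2 fell by 0.43, and Dcn fell from 2770.1 ± 90.4 to 1205 ± 37.1 (SD, n = 3 each). The part of these 4 decreases in the results on translation factors was not tested.

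Translation of an mRNA begins when eIF2 brings the initiator tRNA to the small ribosomal subunit, which eIF1, eIF1A and eIF3 hold ready for scanning. The cap-binding complex eIF4F, made of the cap-binding protein eIF4E, the helicase eIF4A and the scaffold eIF4G, loads that subunit onto the capped mRNA. After the start codon is found, eIF5 and eIF5B let the large subunit join. During elongation eEF1A delivers aminoacyl-tRNAs, eEF1B recharges eEF1A with GTP, eEF2 moves the ribosome along and eIF5A helps it past difficult peptide bonds. Secretory cells such as somatolactotrophs depend on a high rate of protein synthesis.

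The comparison asked which of these factors differ in RNA level when the mutant POU1F1 is present. Of 43 tested genes with an Eif symbol 14 fell (32.6%) and 1 rose, by limma at an adjusted p under 0.05. Of 11 with an Eef symbol 3 fell (27.3%) and 0 rose. The Eef genes include the kinase gene Eef2k, the scaffold gene Eef1e1 and methyltransferase genes. Among the eEF1 genes and Eef2 only Eef1d fell. In all, 17 of 54 fell, or 31.5%, against 8.98% of the 10143 genes tested on the arrays. The single rise, Eif3f, was 1.85% of the members against 9.87% of all genes. In either direction 18 members passed, or 33.3%, against 18.9% of all genes. At an unadjusted p under 0.05, 5 of the 11 Eef genes were past the threshold, 4 lower and 1 higher. Of all genes 15% were lower and 18.5% higher.

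The share that fell has to be read with the brightness of these genes. The median signal of the tested members was 746, against 120.2 over all genes tested, and brighter genes passed more often. Among the 3536 genes with a mean signal of at least 200, 19.7% fell and 11.2% rose. Of the 45 members that bright, 15 fell, or 33.3%, and 1 rose. Of the 9 dimmer ones 2 fell and 0 rose, against 3.25% and 9.14% of all genes under a signal of 200. The median log2 fold change was -0.14 over the 54 members, 0.06 over all genes tested and -0.04 over the bright genes. The changes were small: 15 of the 17 decreases were under 1.5-fold, and the exceptions were Eif1a and Eef2k.

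**Figure D1:**
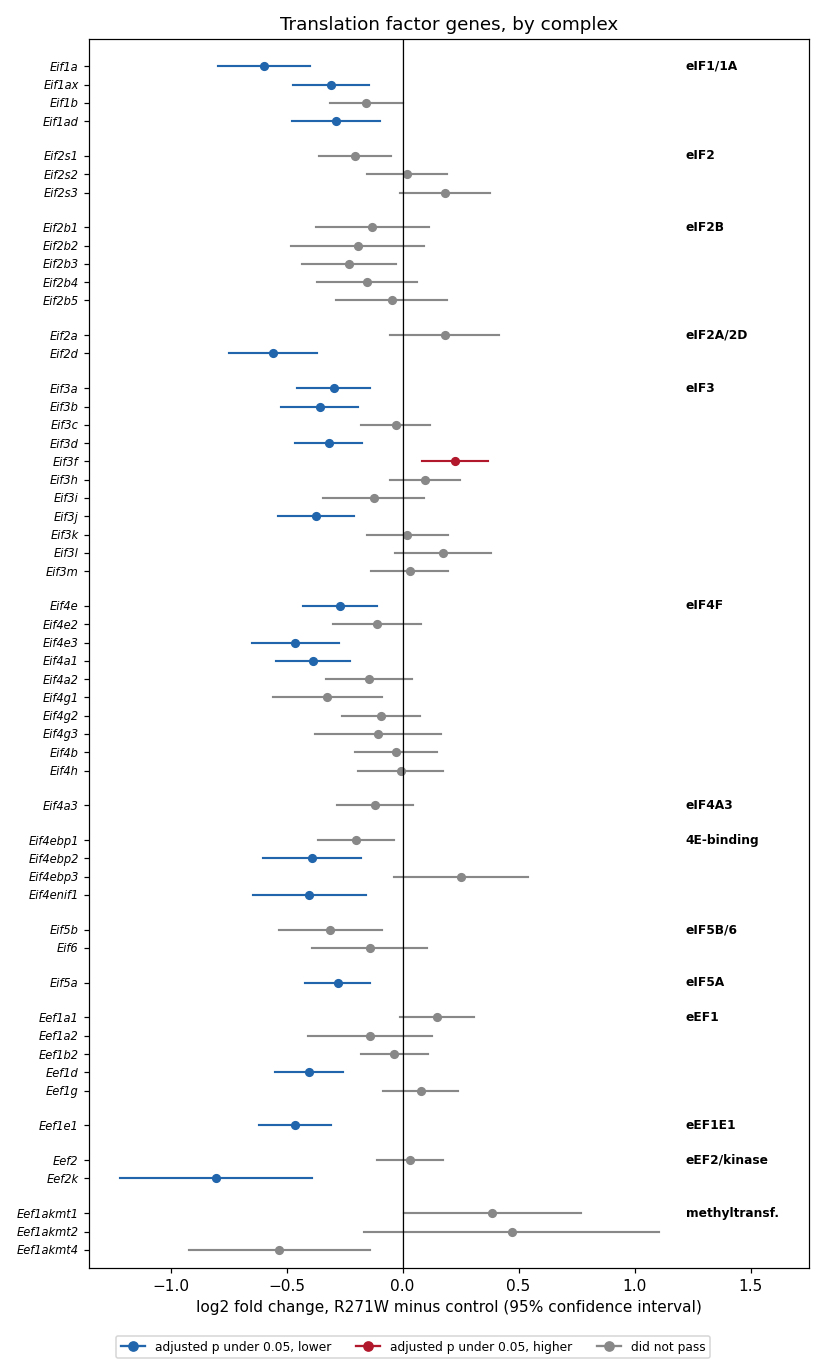
Log2 fold change (R271W minus control, x axis) of the 54 tested translation factor genes, 1 row a gene, grouped by complex, with 95% confidence intervals from limma; blue and red mark adjusted p under 0.05. The 17 blue genes lie in 9 of the 14 groups, while eIF2, eIF2B, eIF4A3, eIF5B with eIF6 and the methyltransferases hold none, and Eif3f is the single red gene at 0.23.

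Groups did not overlap for 24 members that read lower and 4 that read higher; over all genes 16.6% were fully separated downward and 21.2% upward, and among the bright genes 30.7% and 20.2%. Of all 81 tested probe sets of these genes, the representatives included, 25 fell and 1 rose. Of the 27 that were not representatives, 8 fell and 0 rose. Over all 18625 probe sets tested, 1344 were lower and 1596 higher, so that 15.8% passed in either direction. Among the 20 members with more than 1 tested probe set, all probe sets of 16 had the same sign.

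The calls depended on how limma modelled variance. With eBayes fitted without its intensity trend, which gives bright and dim probe sets the same prior spread, 0 of 54 members passed. In that fit 19 had an unadjusted p under 0.05, all of them lower, where 11.6% of all genes and 20.2% of the bright genes were lower at that threshold and 16.1% and 12% were higher. The adjusted p of the 18 genes called here ran from 0.0505 to 0.202. Scaling also mattered: centring each array on its median moves every log2 change by -0.20 and gave 32 members that fell and 0 that rose. The hybridisation spikes added to every sample averaged 8.93 ± 0.118 on the log2 scale in controls and 9.17 ± 0.113 in R271W samples. For beta-actin the 3' signal divided by the 5' signal was 1.82 ± 0.00763 and 1.96 ± 0.0990, also without overlap, while the same ratio for GAPDH overlapped. The part of these offsets in the factor results was not tested.

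**Figure D2:**
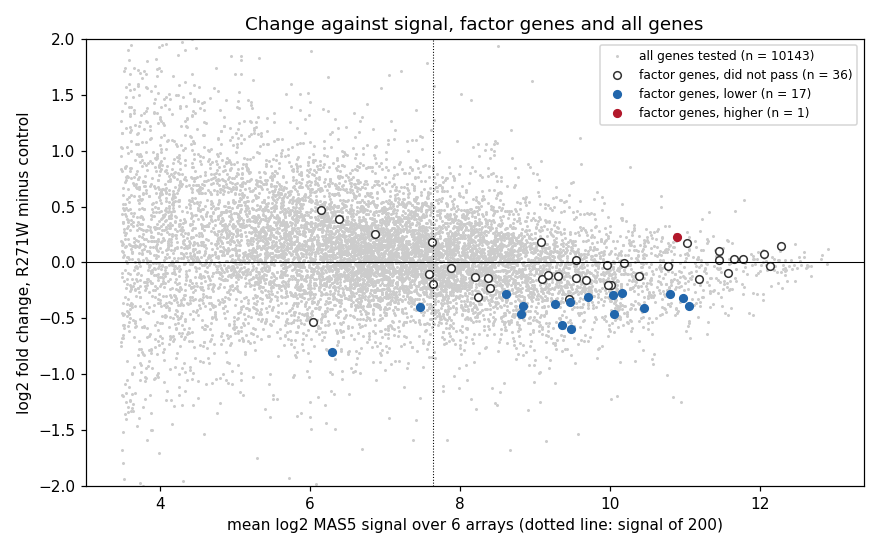
Log2 fold change against mean log2 MAS5 signal for all 10143 genes tested (grey) and the 54 translation factor genes (circles; filled where the adjusted p was under 0.05). The y axis is limited to 2 in both directions, which leaves out 31 genes; most factor genes lie right of the dotted line at a signal of 200, and the brightest of them lie near 0.

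Of the 4 tested genes named after eIF1 and eIF1A 3 fell, where 8.98% of all genes and 19.7% of the bright genes did. Their median log2 change was -0.30. Eif1a and Eif1ax encode forms of eIF1A, which keeps the small subunit ready to scan. Eif1a had signals of 816, 892 and 935 in the control arrays and 526, 576 and 651 in the R271W arrays. Every R271W array lay below every control, and the change was -0.60 in log2 units (95% interval -0.79 to -0.40; limma, adjusted p = 0.000683). The 3 other probe sets of Eif1a fell as well, by -0.44, -0.85 and -0.51 on the log2 scale, each with groups that did not overlap. Eif1ax fell from 939.5, 918 and 921 to 734, 709.9 and 802, a log2 change of -0.31 (interval -0.47 to -0.15, adjusted p = 0.0132). As Eif1a and Eif1ax are close relatives, how well the probe sets tell them apart was not tested. Eif1ad, which encodes a protein with an eIF1A-like domain, went from 439, 403 and 456 to 357, 352 and 353 (log2 -0.29, adjusted p = 0.0408). The R271W arrays of Eif1ad were close together and below all controls, but its call ended when any array except control replicate 2 was left out (adjusted p 0.0648 to 0.147), without the filter (0.0556), with replicate blocks (0.0756) and under quantile normalization (0.0579). That of Eif1ax ended under quantile normalization (0.0522) and without control replicate 1 (0.0511) or R271W replicate 2 (0.0579). Eif1b, an eIF1 gene, read -0.16 and did not pass (interval -0.31 to 0.00).

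For eIF2, the carrier of the initiator tRNA, 0 of 3 tested subunit genes passed by limma, and 1 had an unadjusted p under 0.05. That was Eif2s1, which encodes the alpha subunit phosphorylated in stress. It had signals of 1141, 1060.2 and 1130.0 in controls and 929, 949 and 1014 in R271W cells. The groups did not overlap, with a log2 change of -0.20 (interval -0.36 to -0.05, adjusted p = 0.0743). Eif2s1 passed without R271W replicate 3 (0.0383) and when arrays were centred on their median (0.00304) or 75th percentile (0.0248). It also passed in the fit on means over probe sets (0.0496). Eif2s1 has a single probe set, so its own values were the same there and only the other rows of the fit differed. The beta subunit gene Eif2s2 read 0.02 (interval -0.15 to 0.19) and the gamma subunit gene Eif2s3 0.18 (-0.01 to 0.38), both with overlapping arrays. For eIF2B, the exchange factor that reloads eIF2 with GTP, all 5 subunit genes read below 0, between -0.23 and -0.05, and 0 passed, with 1 at an unadjusted p under 0.05. Eif2b3 was that one, at -0.23 (interval -0.43 to -0.03, adjusted p = 0.121), and alone among the 5 eIF2B genes its arrays did not overlap; it passed when arrays were centred on their median (0.00651) or 75th percentile (0.04). The median was -0.15 for eIF2B and 0.02 for eIF2, against -0.04 for the bright genes. Among the bright genes 19.7% fell and 11.2% rose. At an unadjusted p under 0.05 by limma, 15% of all genes were lower and 18.5% higher. With 3 and 5 genes, 0 calls cannot be told apart from these shares.

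Of the factors that can bring initiator tRNA without eIF2, Eif2d fell, though not in the fit without an intensity trend (adjusted p = 0.0516). Its signals were 768, 789.7 and 832 in controls against 494, 531 and 604 in R271W cells, so the groups were well apart (log2 -0.56, interval -0.75 to -0.37, adjusted p = 0.000827). Eif2a, which is not the alpha subunit of eIF2 despite its symbol, read 0.18 (adjusted p = 0.294).

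eIF3, the large scaffold that binds the small subunit and recruits mRNA, was split. Of 11 tested subunit genes 4 fell, 1 rose and 6 did not pass, with a median of -0.03. All 11 were bright, and among the bright genes 19.7% fell and 11.2% rose. Eif3a, the largest subunit, had signals of 1166, 1200.3 and 1123 in controls and 995, 958 and 891 in R271W cells (log2 -0.30, interval -0.45 to -0.14, adjusted p = 0.0140). Eif3b, another core subunit, went from 795, 815 and 792 to 665, 592 and 619.7 (log2 -0.36, interval -0.52 to -0.19, adjusted p = 0.00635). Both genes had all R271W arrays below all controls, and the second, dimmer probe set of Eif3a fell further (log2 -0.72, adjusted p = 0.0290). Eif3d, a subunit that can itself bind the cap, went from 2247, 2256 and 2235 to 1867, 1685 and 1858 (log2 -0.32, interval -0.46 to -0.17, adjusted p = 0.00544). Eif3j, a loosely bound subunit that acts at the decoding site, went from 670.0, 725 and 699 to 528, 539 and 549 (log2 -0.37, interval -0.54 to -0.21, adjusted p = 0.00477). In both genes the groups were separate. Another probe set of Eif3j fell alike (log2 -0.41, adjusted p = 0.0493).

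The remaining eIF3 subunit genes included the single rise. Eif3f rose from 1698, 1811 and 1761 to 2068, 1970.2 and 2129 (log2 0.23, interval 0.08 to 0.37, adjusted p = 0.0323). Its groups did not overlap, but the call depended on the scaling: it had an adjusted p of 0.841 under median centring and 0.229 under centring on the 75th percentile. Leaving out any array except R271W replicate 2 also ended it (adjusted p 0.0507 to 0.125), as did dropping the filter (0.0695) or fitting replicate blocks (0.0865). Eif3h read 0.10 (interval -0.05 to 0.25), Eif3k 0.02, Eif3l 0.18, Eif3m 0.03 and Eif3i -0.13, all with overlapping arrays. Eif3c was not settled by its probe sets: the brighter read -0.03 with overlap (interval -0.18 to 0.12), and the dimmer fell by 0.27 on the log2 scale without overlap (adjusted p = 0.0421). Subunits a, b, c, g and i form the core that yeast shares. Of the 4 tested here (a, b, c and i) 2 fell, where 19.7% of the bright genes did. Of the 6 tested outside it apart from j, 1 fell and 1 rose. Eif3j, which fell, was left out of this split, and the split was not among the planned groups. Eif3d and Eif3f, also paired after the values were seen, differed by -0.54 in their changes (exact permutation test, two-sided, p = 0.10, adjusted p = 0.133). With 3 against 3 arrays 0.10 is the smallest p possible, so this test could not pass and decides nothing. The call of Eif3a ended under quantile normalization (0.119) and without control replicate 2 (0.0654).

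**Figure D3:**
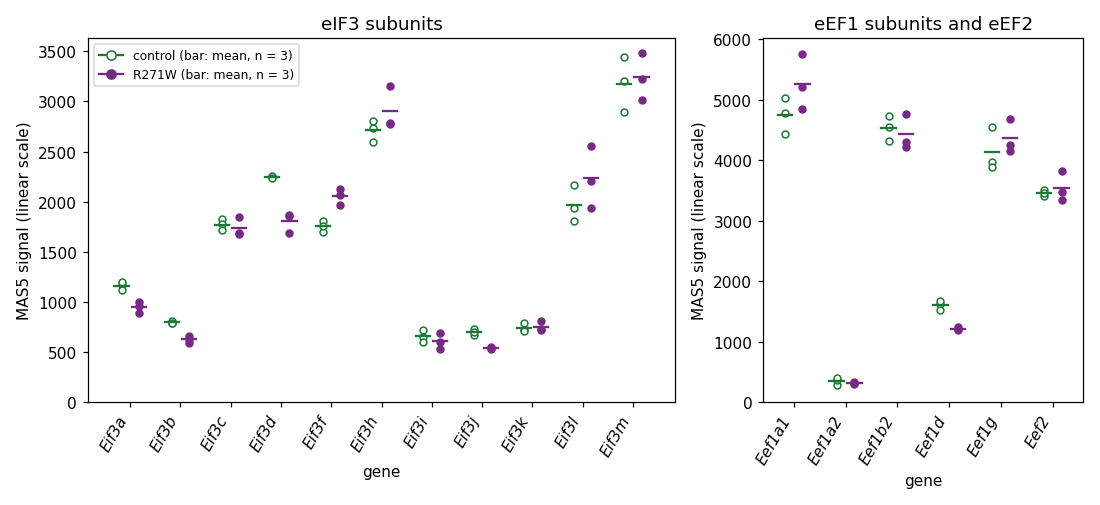
MAS5 signal (linear scale) in each of the 6 arrays for the 11 tested eIF3 subunit genes (left) and for the eEF1 genes and Eef2 (right), with bars at the mean of 3 arrays. Eif3a, Eif3b, Eif3d, Eif3j and Eef1d have all R271W arrays below the controls, Eif3f has them above, and the other genes shown overlap; levels of different genes come from different probe sets and are not comparable.

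In the cap-binding complex eIF4F and its cofactors all 10 tested genes read below 0, and 3 of them fell (30%, median -0.13). Among the bright genes 19.7% fell, and their median was -0.04. Eif4e, the cap-binding protein whose supply limits initiation in many cells, had signals of 1258, 1292 and 1234 in controls and 973, 1051 and 1119 in R271W cells. All R271W arrays were lower (log2 -0.27, interval -0.43 to -0.11, adjusted p = 0.0243). Eif4a1, the main helicase gene, went from 2441, 2634 and 2245 to 1764, 1955 and 1873 (log2 -0.39, interval -0.55 to -0.23, adjusted p = 0.00322). Eif4e3, an eIF4E relative that binds the cap more weakly, went from 545, 503 and 539 to 362, 383 and 408 (log2 -0.46, adjusted p = 0.00262), and its other probe set fell too (-0.38). Both groups were separate in these genes. The call of Eif4e was less stable: it ended without any single array except R271W replicate 3 (adjusted p 0.0581 to 0.0926), under quantile normalization (0.153) and with replicate blocks (0.0570). The 2 other probe sets of Eif4e were at mean signals of 45.9 and 4.46; averaging them with the bright one gave 0.01.

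Eif4g1, the scaffold that joins eIF4E to eIF4A and eIF3, had signals of 766, 725 and 857 in controls and 709.6, 654 and 522 in R271W cells. R271W replicate 3 was the lowest array, the groups did not overlap, and the change of -0.32 did not pass (interval -0.56 to -0.09, adjusted p = 0.0602). It passed without R271W replicate 1 (0.0279), with the filter at the 60th percentile (0.0335) and under median (0.003165) or 75th percentile centring (0.0166). A dimmer probe set of Eif4g1 fell (-0.52, adjusted p = 0.0332). Its 2 dimmest probe sets read -0.31 (adjusted p = 0.389) and 0.15 (0.927), both with overlap. Eif4g2, which encodes a scaffold that lacks the eIF4E-binding part, read -0.09 (interval -0.26 to 0.07), and Eif4a2, the second cytosolic helicase gene, read -0.14 with overlapping arrays. The difference between the changes of Eif4a1 and Eif4a2 was -0.24 on the log2 scale (exact permutation test, two-sided, p = 0.30). Whether their probe sets tell these close relatives apart was not tested. The helicase cofactors Eif4b and Eif4h read -0.03 and -0.01, with intervals from -0.21 to 0.15 and from -0.19 to 0.18. Eif4a3, a helicase of the exon junction complex on spliced mRNA, read -0.12 (adjusted p = 0.330) and passed under median centring (0.0201).

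Of the proteins that hold eIF4E away from eIF4G, 2 of 4 genes fell. Over all genes that share was 8.98%, and over the bright genes 19.7%. Eif4ebp2, which encodes such a repressor under control of mTOR, had signals of 490.2, 582 and 499 in controls and 436, 395 and 368 in R271W cells (log2 -0.39, interval -0.60 to -0.18, adjusted p = 0.0153). Eif4enif1, which encodes the eIF4E transporter 4E-T, went from 208, 204 and 197 to 166, 152 and 144 (log2 -0.40, adjusted p = 0.0273). Both had all R271W arrays below all controls. Eif4ebp1, the best studied of the repressors, had signals of 1154, 1025 and 1071 against 933, 896 and 996. It too was lower in every R271W array, at -0.20 (interval -0.37 to -0.04), but did not pass (adjusted p = 0.0942). Without R271W replicate 3 Eif4ebp1 passed (0.0490), as it did under median (0.00344) and 75th percentile centring (0.0329). Eif4ebp3 read the other way, at 0.25, without overlap and without passing (interval -0.04 to 0.54). The changes of Eif4ebp2 and Eif4ebp3 differed by -0.64 (p = 0.10, adjusted p = 0.133, exact permutation test, two-sided), where 0.10 is the smallest p that 3 against 3 arrays allow. The call of Eif4ebp2 ended without control replicate 2 (0.0806), and that of Eif4enif1 without any single array except R271W replicate 1 (0.0601 to 0.0833).

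The late steps of initiation had 2 tested genes and 0 calls by limma, with 1 at an unadjusted p under 0.05. Among the bright genes 19.7% fell and 11.2% rose, and at the unadjusted threshold 15% of all genes were lower and 18.5% higher. Eif5b, the GTPase that joins the subunits, read -0.31 with separate groups (interval -0.53 to -0.09, adjusted p = 0.0574). It passed under median (0.00363) or 75th percentile centring (0.0204), with the filter at the 60th percentile (0.0358) and without control replicate 3 (0.0419). Its 2 other probe sets read -0.11 and -0.01 with overlap. Eif6, which keeps the large subunit from joining too early, read -0.14 (interval -0.39 to 0.11). Eif5a carries hypusine, a modified lysine found in this factor. Its signals were 1933, 1988 and 1950.5 in controls and 1558, 1594 and 1688 in R271W cells, which did not overlap (log2 -0.28, interval -0.42 to -0.14, adjusted p = 0.0103). That call ended under quantile normalization (0.0795) and without control replicate 2 (0.0502).

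**Figure D4:**
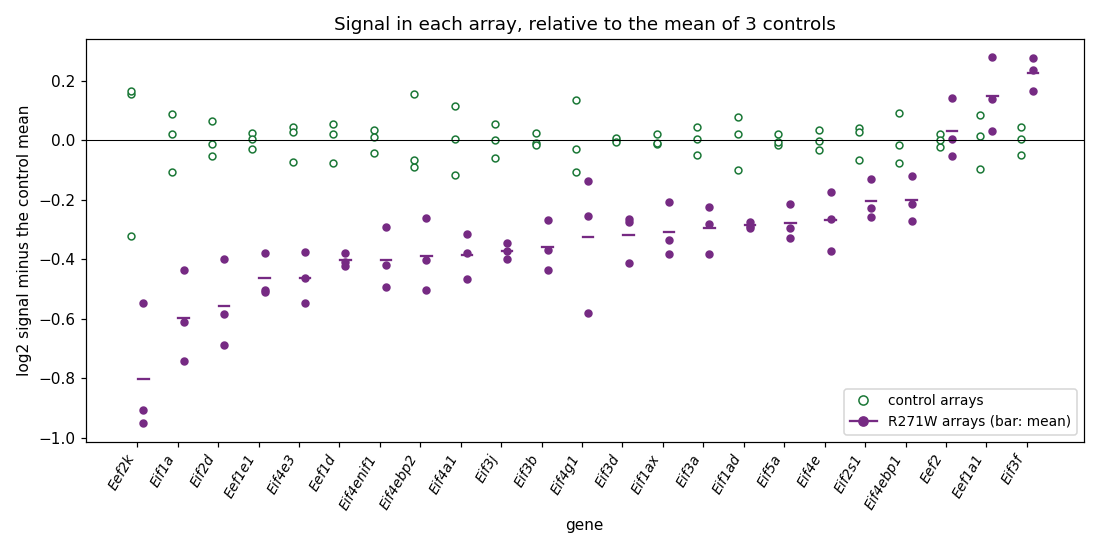
Log2 signal in each array minus the mean of the 3 controls, for the 18 genes past the threshold and for Eif2s1, Eif4g1, Eif4ebp1, Eef2 and Eef1a1, ordered by their change. Filled R271W points lie below the open control points in the genes from Eef2k to Eif4ebp1, overlap them in Eef2 and Eef1a1, and lie above them in Eif3f.

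Of the 5 tested eEF1 genes, all bright, 1 fell (20%, against 19.7% of the bright genes), and the median was -0.04. Eef1a1, which encodes the tRNA carrier eEF1A and is among the most abundant messages of most cells, had signals of 4427, 5021 and 4780.2 in controls and 5210.2, 4838 and 5747 in R271W cells. These overlapped (log2 0.15, interval -0.01 to 0.31, adjusted p = 0.204), and the other probe set read 0.03. Under quantile normalization Eef1a1 passed as higher (adjusted p = 0.0288). Eef2, the translocase, had signals of 3399.8, 3509.6 and 3462 against 3335, 3466 and 3813, which overlapped (0.03, interval -0.11 to 0.17). Eef1b2 and Eef1g, subunits of the exchange complex eEF1B, read -0.04 (interval -0.18 to 0.11) and 0.08 (-0.08 to 0.24). A dim second probe set of Eef2, at a mean signal of 13.8, read 1.13 with overlap. Eef1a2, the muscle and neuron form of eEF1A, read -0.14 with overlap.

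Eef1d was the eEF1 gene that passed. This further exchange subunit fell from 1630.1, 1666 and 1523 to 1209, 1196 and 1234 (log2 -0.40, interval -0.55 to -0.26, adjusted p = 0.00127), with groups far apart. Set against Eef1b2, a pair chosen after the values were seen, its change differed by -0.37 (exact permutation test, two-sided, p = 0.10, adjusted p = 0.133). As 0.10 is the smallest p possible here, that test could not pass and decides nothing. Eef1e1, which despite its symbol is a scaffold of the multi-tRNA-synthetase complex, fell from 1224, 1271 and 1253 to 961, 878 and 882 (log2 -0.46, interval -0.62 to -0.31, adjusted p = 0.000667). Eef2k, the kinase that inhibits eEF2, gave the largest decrease but at low signals: 115, 82.9 and 116 in controls against 70.8, 53.6 and 55.3 (log2 -0.80, interval -1.22 to -0.39, adjusted p = 0.0119). Its other tested probe sets read -0.21 and -0.42 with overlap, and its call ended without control replicate 1 (0.0578) or 3 (0.0601) and in the mean over its probe sets. Of the lysine methyltransferase genes that modify eEF1A, 0 of 3 passed by limma, with 2 at an unadjusted p under 0.05. Over all genes 8.98% fell and 9.87% rose, and at the unadjusted threshold 15% were lower and 18.5% higher. Eef1akmt4 read -0.53 (interval -0.92 to -0.14, adjusted p = 0.0635) and Eef1akmt1 0.39 (0.00 to 0.77), each without overlap. Eef1akmt4 passed under quantile normalization (0.0237) and under median (0.00968) or 75th percentile centring (0.0321). It also passed in the fit on means over probe sets (0.0477), where the values of its single probe set were the same and only other rows differed.

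The starts of these genes were inspected for the sequence that marks messages of the translation machinery. Such messages often begin with a C and a run of pyrimidines, called a 5' TOP tract, through which mTOR and the RNA-binding protein LARP1 control their translation. RefSeq promoter sequences of the GRCr8 assembly were at hand for 51 of the 56 genes, from 250 bases before to 50 after each annotated start. A C followed by at least 6 further C or T letters, on the transcribed strand and lying between 5 bases before and 15 after the start, was present in 7 of the 51 (13.7%), against 8.60% of all genes in the table and 7.89% of genes tested here. They are shown as 30 bases from 10 before the start. Capitals mark the tract up to base 15 after the start, and in Eif3f, Eef1b2 and Eif2s3 the run goes on in lower case:

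Eif3f, chr1:172369052-172369081, plus strand: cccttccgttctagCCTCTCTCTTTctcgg
Eif2a, chr2:144911350-144911379, plus strand: gcatgggtttCTCTTTCCgggacaagatgg
Eif3m, chr3:111897174-111897203, minus strand: caccgtgtggtaccgCTCCTTTTCCggtcg
Eef1a1, chr8:88225050-88225079, minus strand: ttggacgttCTTTTTCgcaacgggtttgcc
Eef1b2, chr9:72074081-72074110, plus strand: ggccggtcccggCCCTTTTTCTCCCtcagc
Eef1akmt1, chr15:35826902-35826931, minus strand: gatgctcattggCCCCCTCCTTCCggtcgg
Eif2s3, chrX:62933680-62933709, minus strand: cagccgagcattttCCTTTTCTCTCtgagc

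These 7 genes had log2 changes from -0.04 (Eef1b2) to 0.39 (Eef1akmt1), with a median of 0.18, and Eif3f was the one that passed. Of the 15 genes that fell and had a sequence, 0 held the tract, against 7.89% of genes tested here. With 15 genes, 0 cannot be told apart from that share. Of the 33 tested genes with a sequence that did not pass, 6 did. The match depends on the annotated start, which can be off by several bases, and a missing match says only that these letters are not in that window. Among 8 tested members of a list of well-known 5' TOP messages (Eef1a1, Eef1b2, Eef1d, Eef1g, Eef2, Eif3f, Eif3h and Eif4b), 1 rose and 1 fell (12.5% each), with a median of 0.05. All 8 were bright, and among the bright genes 11.2% rose and 19.7% fell. Of that list only Eef1a1, Eef1b2 and Eif3f are among the 7 shown. Eef1d, the one that fell, is not, so the search misses known 5' TOP messages. The probe set for Eif3e on this array carried a second symbol and was not counted.

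The E-box CACGTG, a palindrome that MYC, MAX and related factors bind, was also searched in the whole 300 bases. It was found in 12 of the 51 genes (23.5%), against 10.4% of the genes tested on these arrays and 7.08% of all genes in the table. Among genes that fell it was present in 5 of 15 (33.3%), and among tested genes that did not pass in 5 of 33 (15.2%). The difference between these small counts was not tested. The holders that did not pass were Eif1b, Eif4g1, Eif4h, Eef1akmt4 and Eef2. The other holders were Eif3f and the untested Eif5a2, and the E-box of Eif3f lay apart from its tract. The 5 that fell are shown with 12 bases on either side of the E-box, which is in capitals, to show the letters around each match:

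Eif3a, chr1:269918978-269919007, minus strand: ccgcgagggaatCACGTGgctccttccttt
Eif3b, chr12:19334808-19334837, minus strand: actcgctgcacgCACGTGgctccgcgctag
Eif4e, chr2:229740504-229740533, plus strand: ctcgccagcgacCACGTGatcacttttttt
Eif5a, chr10:55143410-55143439, minus strand: aaggggcggggtCACGTGtgtgcgtcattg
Eef2k, chr1:184824331-184824360, plus strand: acccggggcagcCACGTGagcccgggcgtg

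The 11 tested holders of the E-box had log2 changes from -0.80 (Eef2k) to 0.23 (Eif3f), with a median of -0.28. A match describes letters in a window and shows no binding.

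Genes that act beside these factors were counted in 5 further lists, of which 8 of 40 tested genes fell (20%) and 1 rose (2.5%), again against 8.98% and 9.87% of all genes. Among the 21 of them with a signal of at least 200, 6 fell (28.6%) and 0 rose, against 19.7% and 11.2% of the bright genes. Among proteins that bind poly(A) tails or eIF4F, 2 of 10 fell (20%). Pabpc4, a poly(A)-binding protein, went from 1233 ± 60.6 to 736 ± 57.4 (SD, n = 3 each; log2 -0.75, adjusted p = 4.32e-05) and its second probe set fell by 0.93 on the log2 scale. Larp1 went from 716 ± 46.2 to 471 ± 59.5 (log2 -0.61, adjusted p = 0.00102), with 2 of its 3 other probe sets also called lower. Paip1 and Pdcd4, which bind poly(A)-binding protein and eIF4A, read 0.15 and 0.00, but each had 1 dimmer probe set that rose (0.61, adjusted p = 0.00157, and 0.37, adjusted p = 0.0080). The further probe sets of Pdcd4 read -0.10, -0.08 and -0.68, all with overlap. Paip1 and Pdcd4 are named for this disagreement, after their values were seen. Termination and recycling genes had 3 of 8 that fell (37.5%, against 8.98% of all genes and 19.7% of the bright genes). They included Etf1, the release factor eRF1 (577 ± 26.5 to 413 ± 35.5, log2 -0.49, adjusted p = 0.00246), and Abce1, which splits ribosomes after termination (956 ± 18.9 to 735 ± 41.0, log2 -0.38, adjusted p = 0.0035). The remaining one was Mcts2, a relative of the re-initiation factor MCTS1, whose arrays overlapped (log2 -0.32, adjusted p = 0.0468); it is named to complete the count. Without the intensity trend Larp1, Etf1 and Abce1 did not pass (0.0559 to 0.0765), and Pabpc4 did.

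The enzymes that modify factors had 2 of 8 that fell (25%, against 8.98% of all genes), both of the diphthamide pathway that modifies eEF2. Dph3 went from 1600.2 ± 33.5 to 1113 ± 78.7 (log2 -0.53, adjusted p = 0.000323) and Dph5 from 63.5 ± 12.6 to 31.5 ± 1.32 (log2 -0.995, adjusted p = 0.0111), whose call ended without control replicate 1 (0.0695). That of Dph3 ended in the mean over its probe sets (0.0560). The hypusine enzymes Dhps and Dohh of eIF5A read -0.20 and -0.22 and did not pass. Among eIF2 alpha kinases and phosphatase subunits 1 of 6 rose (16.7%, against 9.87% of all genes). That was Eif2ak2, the double-stranded RNA sensor PKR, which went from 46.4 ± 2.32 to 71.3 ± 8.99 (log2 0.61, adjusted p = 0.0489). This call ended in 15 of 17 alternatives. Eif2ak3, the kinase PERK of the endoplasmic reticulum, read 0.00 (interval -0.30 to 0.30), and Eif2ak1 read 0.25 (adjusted p = 0.154). Among mitochondrial translation factors 1 of 8 fell (12.5%, against 8.98% of all genes). That was the initiation factor Mtif2 (log2 -0.63, adjusted p = 0.0317). Its call ended without control replicate 2 or 3 or R271W replicate 1 or 3 (0.0883 to 0.108). The next smallest p there was that of Mtrf1, a release factor gene (log2 -0.72, adjusted p = 0.186).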

How the data were processed

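The 6 deposited arrays hold intensity values that the authors computed with MAS5 (per the submitters' processing notes, without a version), as 1 linear signal a probe set. The values themselves show that all arrays share a trimmed mean of 100.0 (2% trimmed at each end), which ties the signals to bright probe sets. The number of arrays limits the precision.

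Log2 signals were compared by limma 3.58.1 (R 4.3.3; lmFit, then eBayes with an intensity trend, two-sided), with Benjamini-Hochberg adjustment over 18625 probe sets and a threshold of 0.05. The filter kept non-control probe sets at or above the 40th percentile of mean log2 signal (a signal of 11.2). Symbols came from GEO's platform annotation, updated by Entrez ID through RefSeq (GRCr8): 20826 probe sets had 1 symbol, 436 several and 9780 none.

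The members, lists, complexes and alternatives were chosen with earlier results of these data known. The background of genes with a signal of at least 200, the shares of all genes at an unadjusted p, the sequence searches and the gene pairs (4 compared, p-values adjusted over them) were added after the values were seen. Named were all members past the threshold, the smallest p of each complex, 8 fixed genes (Eif4e, Eif4g1, Eif4a1, Eif2s1, Eif5a, Eif4ebp1, Eef1a1 and Eef2) and the 2 smallest p of each further list; other members are named to complete a complex. Plots used matplotlib 3.10.9 (Python 3.11.15).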

Additional observations from a re-analysis of the deposited data

How the results depend on the processing

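Besides the fit without an intensity trend, 9 of the 18 called genes (Eif1a, Eif2d, Eif3b, Eif3d, Eif3j, Eif4e3, Eif4a1, Eef1d and Eef1e1) passed in the same direction in all 16 other alternatives that kept the threshold without a fold minimum. In the mean over probe sets Eif4e turned to 0.0066, the eIF3 median was -0.13 and 2 genes of the further lists rose. Centring on the median gave 3132 probe sets lower and 730 higher over all tested (18.9% of calls higher, against 54.3% as reported), 32 factor genes lower and 0 higher, and 14 genes of the further lists lower and 0 higher. The medians there were -0.50 for eIF1 and eIF1A, -0.18 for eIF2, -0.35 for eIF2B, -0.23 for eIF3, -0.33 for eIF4F, -0.49 for the eIF4E-binding regulators and -0.23 for eEF1. Centring on the 75th percentile (36.9% of calls higher) gave 0 higher among the factors and 0 in the further lists, with medians of -0.38 for eIF1 and eIF1A, -0.063 for eIF2, -0.11 for eIF3 and -0.21 for eIF4F. Quantile normalization gave 4 factors and 2 further genes higher, with medians of 0.11 for eIF2 and 0.10 for eIF3. Without the trend, 431 probe sets were lower and 634 higher over all tested, 0 factors in either direction, and 3 further genes lower and 0 higher. At a fold of at least 1.5, 506 probe sets were lower and 964 higher, 2 factors lower and 0 higher, and 4 further genes lower. Without the filter 0 factors and 0 further genes were higher and the eIF2 median was -0.062. Robust eBayes, a floor on the signal and an offset added to it (both the 20th percentile) each gave 0 further genes higher. The causes were not tested, apart from the fewer calls that a fold minimum brings by construction.

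Leaving out 1 array gave 1000 to 1346 probe sets higher and 945 to 1327 lower. It gave 12 to 17 factors lower and 0 to 1 higher, and 6 to 8 further genes lower and 0 to 1 higher. The eIF2 median ran from -0.054 (without R271W replicate 3) to 0.083 (without control replicate 2), and the eIF4F median from -0.24 (without control replicate 1) to -0.12. The eIF3 median ran from -0.076 to -0.0048 and the eEF1 median from -0.088 to -0.0017. With a replicate block 15 factors were lower and 0 higher, and 8 further genes were lower and 0 higher; the block ended the calls of Eif1ad, Eif3f, Eif4e and Eif2ak2. The numbers do not pair the arrays: deviations of control and R271W arrays of the same number correlated at -0.00165, 0.0101 and -0.0201. With 3 arrays a group, only the spread between them is known, and dim genes such as Eef2k carry the widest intervals.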

Other observations

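Probe sets annotated to 2 symbols were outside the gene rule. The one shared by Eif3e and Eif3el1 read -0.01 on the log2 scale (signals of 3021 ± 199 in controls and 3013 ± 288 in R271W cells, SD, n = 3 each). The 3 shared by Eif5, the GTPase activator of eIF2, and a pseudogene read -0.06, -0.12 and -0.04, and none passed (limma adjusted p = 0.672, 0.293 and 0.817). The one shared by Eif2s3 and Eif2s3y read 0.13 (adjusted p = 0.371), beside 0.18 for the probe set of Eif2s3 alone.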
